A study of Mus musculus with 6 samples.

Results

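The genes described here encode the machinery of endoplasmic reticulum (ER)-associated degradation, usually shortened to ERAD. They are 34 named genes of the pathway, listed by symbol, out of 54232 genes in the count files. Earlier results of these data were known when this list and the others below were made. All 34 were found by their symbols, and all 34 had enough reads to be tested. They were compared in liver RNA from 2 groups of mice, with 3 RNA-sequencing libraries in each. Both groups were male C57BL/6 mice aged 8 to 10 weeks on a chow diet, and both lacked FXR, the receptor for bile acids (gene Nr1h4). The controls, SKO, had the genotype Fxr-/- Xbp1fl/fl, in which floxed Xbp1 alleles remain intact. The other group, DKO, had the genotype Fxr-/- Xbp1LKO, in which Xbp1 is also deleted in the liver. The Cre line and the deleted exons are not given in the labels. Mice with intact FXR were not analysed here, so every difference is relative to livers that already lacked it.

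ERAD removes proteins that fail to fold in the ER. Mannosidases and lectins of the ER lumen mark and deliver misfolded glycoproteins to ubiquitin ligases in the ER membrane, the best studied of which pairs HRD1, encoded by Syvn1, with its adaptor SEL1L. The client is ubiquitinated on its way out, pulled from the membrane by the ATPase p97, encoded by Vcp, and passed to the proteasome. XBP1 is a transcription factor that becomes active when the ER sensor IRE1 splices its mRNA, and in many cell types it is known to induce ERAD genes. Hepatocytes make most plasma proteins and carry a heavy ER folding load.

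Xbp1 itself was lower in DKO, at 77.1 ± 16.3 against 247 ± 18.9 CPM, which is a change of -1.68 ± 0.14 on the log2 scale (edgeR adjusted p = 0.000146). CPM are normalised counts-per-million, given as the mean ± SD of 3 libraries, and a log2 fold change is given ± its standard error. Nr1h4 had 98.6 CPM in SKO and 97.4 in DKO, which does not check the FXR allele, because the exons it lacks are not named. Total counts per library lay between 16966422 and 21107674, where 3 counts correspond to 0.126 to 0.191 CPM. DKO replicate 1 stood apart from the other DKO libraries, at 45.7 on the first principal component against 19.8 and 27.5, and its effect is given beside the results it changes. The titles of all DKO libraries and of SKO replicate 3 carry a pair of numbers whose meaning is not given, and nothing says that each library is 1 animal. The p-values therefore rest on the spread among these samples, part of which may be technical. Hepatocyte markers summed to 83133 to 110761 CPM in SKO and 53594 to 64799 CPM in DKO, with 5 of 8 called lower (smallest p: Serpina1c, Alb and Apoa1, log2 -1.01, -0.89 and -0.78). Most of these sums was Alb, at a mean of 66486 CPM in SKO and 35800 CPM in DKO. Cps1, Asgr1 and Hnf4a were not called, with log2 fold changes of -0.24, -0.05 and 0.11. Stellate cell and fibroblast markers went from 348 to 415 CPM up to 586 to 854 CPM, with 6 of 8 called higher (Dcn, Col3a1 and Pdgfrb, log2 0.69, 1.47 and 0.83). Kupffer cell and macrophage markers went from 354 to 447 CPM up to 498 to 725 CPM, with 5 of 8 called higher (Cd68, Marco and C1qa, log2 1.05, 1.16 and 0.88). Cholangiocyte markers went from 80.0 to 91.6 CPM up to 141 to 224 CPM, with 4 of 8 called higher (Spp1, Epcam and Krt19, log2 1.27, 1.24 and 1.26). Endothelial markers, none of the 8 called, stood at 557 to 569 CPM and 528 to 559 CPM. T and NK cell markers (3.24 to 4.9 and 5.38 to 7.61 CPM) and neutrophil markers (4.34 to 5.16 and 4.45 to 11.3 CPM, with Ly6g and Mpo at 0 in some libraries) had none called. Of the markers named here, Alb, Apoa1, Col3a1, Pdgfrb, Epcam and Krt19 lost their calls without SKO replicate 2, and all but Alb without at least 1 other library too (edgeR adjusted p up to 0.0927). The part these shifts play in the results below was not tested, and in bulk tissue fewer cells of a type and less RNA per cell cannot be told apart.

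With TMM scaling, the measured expression of 28 of the 34 ERAD genes was below that of SKO in DKO liver, and 6 were above it. Of these genes, 13 were called lower and none higher at an edgeR adjusted p under 0.05, and 21 were not called. The called genes are 38.2% of the members, where 9.70% of the 13986 genes tested were called lower and 10.3% higher. With both DESeq2 and limma-voom, 11 members were called lower and 0 higher. In these fits 9.22% and 9.24% of all genes were called lower, and 1321 and 1303 genes higher. Every DKO library lay below every SKO library in 20 members (58.8%, against 19.4% of all genes tested) and above in 2 members, against 20.2% of all genes. The median log2 fold change was -0.214 over the members and 0.006 over all genes tested. The decreases were moderate. Edem1 and Selenos, the most reduced members, had DKO-to-SKO ratios of 0.607 and 0.613.

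These absolute directions depend on how libraries are scaled. TMM factors were 0.903 to 0.951 in SKO and 1.05 to 1.13 in DKO, and with total counts alone the median of all genes moved to 0.226. Under that scaling 2 members, Edem1 and Selenos, were called lower (5.88%, against 3.85% of all genes tested). Another 4, Ube2g2, Aup1, Vcp and Erlin2, were called higher (11.8%, against 27.6% of all genes), and the median of the members was 0.001. The distance of the members' median from that of all genes was -0.22 with TMM and -0.225 with total counts, and stayed between -0.259 and -0.204 over all settings tried. Leaving out SKO replicate 2 reduced the 13 calls to 8, while the share of all genes called lower went from 9.70% to 5.2%. Without DKO replicate 1, 10 members and 7.03% of all genes were called lower, and March6, Ube2g1 and Ngly1 were the 3 lost.

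**Figure D1:**
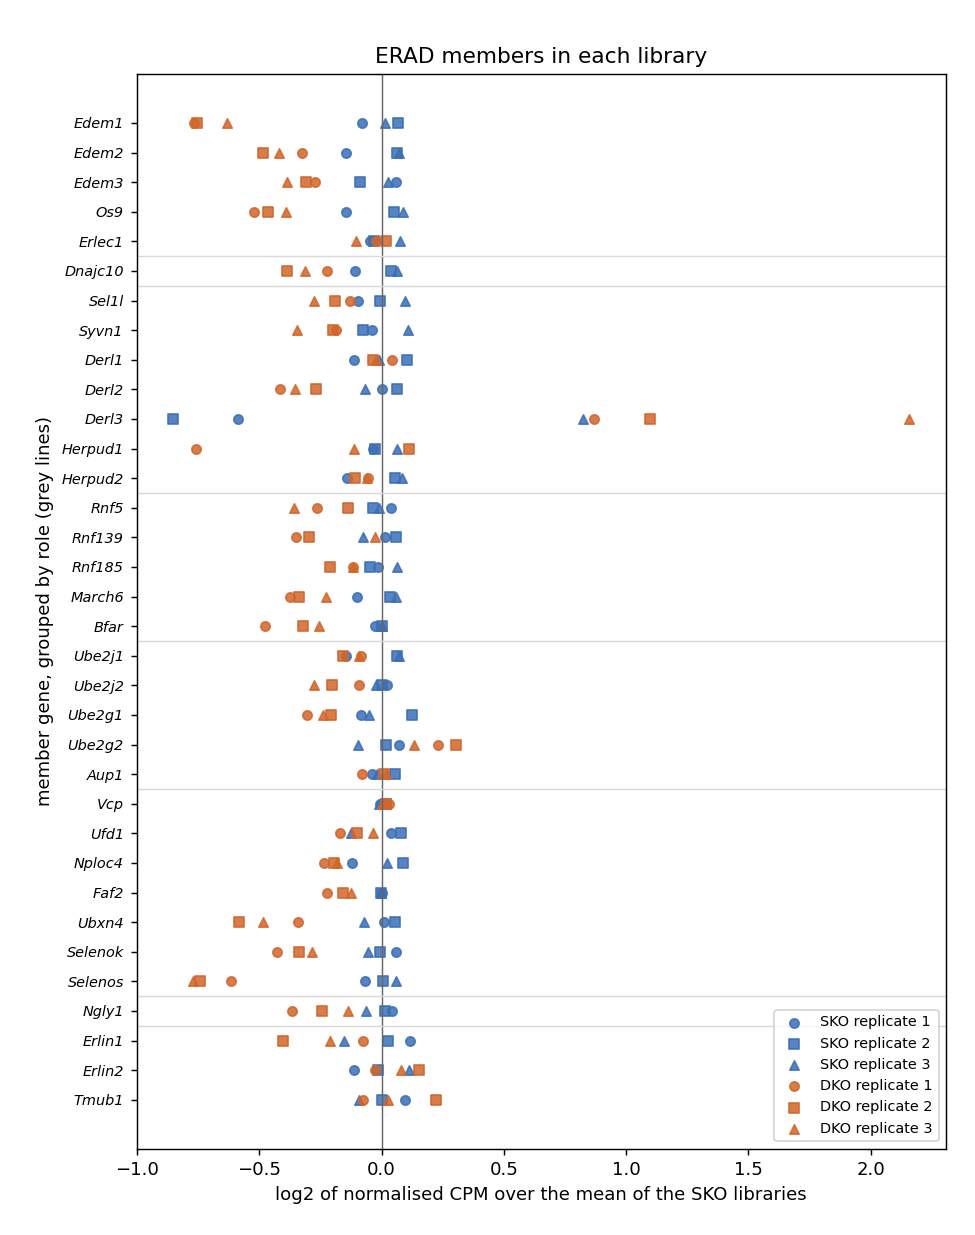
Log2 of the normalised CPM of each ERAD gene over the mean of the SKO libraries (x axis), by gene and role (y axis), with TMM scaling. Blue symbols are SKO libraries, orange symbols DKO libraries, and circle, square and triangle are replicates 1, 2 and 3. In 20 of 34 genes all orange symbols lie left of all blue ones, with Edem1 and Selenos furthest left, while Derl3 spreads widely in both groups. With total-count scaling the median of all genes shifts to the right by 0.22.

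Promoters were examined because many of these genes were lower together in livers lacking a transcription factor with known recognition sequences. RefSeq windows (GRCm38.p6, the assembly of mm10) of 250 bases before to 50 bases after the start site were found for 27 of the 34 members. Both strands were searched for the ER stress response element ERSE, which reads CCAAT, any 9 bases, CCACG. The others were ERSE-II, which reads ATTGG, any 1 base, CCACG, and the core of the unfolded protein response element (UPRE), TGACGTG. ERSE was found in 2 members, Syvn1 and Derl3, and in 0.137% of 27025 genes. ERSE-II was found in 1 member, Herpud1, and in 0.0444% of genes. The UPRE core was found in 2 members, Ube2j1 and Vcp, and in 2.22% of genes. None of the 13 members called lower held any of the 3 motifs in this window. With shares this low over all genes, that absence does not set the 13 apart. None of the 5 members that held a motif was called in the main fit. Among the alternatives, Syvn1 was called lower with RLE size factors and without the filter on low counts. Derl3 was called higher only without SKO replicate 3. Vcp was called higher only with total counts, where 27.6% of all genes were. These letters are descriptions of short windows, and a window without them says nothing of binding elsewhere.

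The 5 stretches with a motif are shown because they belong to members that were not called, with the motif in capitals and 20 bases on each side, all on the strand of the gene. They lie at chr19:6046512-6046570 (plus strand, Syvn1), chr10:75893222-75893280 (plus strand, Derl3), chr8:94386357-94386407 (plus strand, Herpud1), chr4:33031293-33031339 (plus strand, Ube2j1) and chr4:43000595-43000641 (minus strand, Vcp). In Derl3 and Ube2j1 the motif is on the strand opposite the gene.
Syvn1: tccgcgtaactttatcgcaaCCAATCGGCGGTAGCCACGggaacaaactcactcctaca
Derl3: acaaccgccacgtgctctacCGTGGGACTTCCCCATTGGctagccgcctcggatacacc
Herpud1: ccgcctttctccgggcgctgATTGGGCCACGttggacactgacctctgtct
Ube2j1: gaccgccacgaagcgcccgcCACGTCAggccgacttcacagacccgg
Vcp: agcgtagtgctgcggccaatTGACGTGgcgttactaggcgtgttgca

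Searched for alone, CCACG, which is part of ERSE and ERSE-II, was found in 16 of the 27 members with a window (59.3%) and in 35.5% of all genes. It was in 8 of the 13 members called lower and in 8 of the 14 members with a window that were not called. This search, and the choice to print the most reduced members, were made after their values were seen. The stretches at chr6:108828391-108828510 (plus strand, Edem1) and chr7:66079529-66079648 (plus strand, Selenos) are shown with CCACG, or its reverse complement CGTGG, in capitals.
Edem1: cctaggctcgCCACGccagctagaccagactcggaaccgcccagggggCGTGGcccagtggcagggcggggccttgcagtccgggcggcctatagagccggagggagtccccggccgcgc
Selenos: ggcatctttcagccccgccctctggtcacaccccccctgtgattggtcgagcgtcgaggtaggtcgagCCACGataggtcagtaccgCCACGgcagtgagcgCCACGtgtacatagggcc

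Of the 5 genes of glycan recognition in the ER lumen, 4 were called lower. EDEM proteins trim mannose from glycoproteins that have stayed in the ER too long. Edem1 (ENSMUSG00000030104, mm10 chr6:108828641-108859356) was counted at 195, 216 and 208 CPM in the SKO libraries and at 121, 122 and 133 CPM in the DKO libraries. The groups lay well apart, and on the log2 scale Edem1 fell by 0.72 ± 0.08 (edgeR adjusted p = 0.000346). Edem2, whose product starts the trimming, stood at 57, 66.0 and 66.3 CPM in SKO and 50.4, 45.1 and 47.2 CPM in DKO. It fell by 0.41 ± 0.08 (edgeR adjusted p = 0.00743). Edem3 stood at 65.8, 59.3 and 64.2 CPM in SKO and 52.2, 51.0 and 48.3 CPM in DKO, and fell by 0.32 ± 0.07 (edgeR adjusted p = 0.0118, and 0.0531 without DKO replicate 3). In none of these 3 genes did the groups overlap.

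The lectins that bind the trimmed glycans had different values. Os9 (ENSMUSG00000040462, mm10 chr10:127095650-127121131) was counted at 244, 280 and 287 CPM in SKO and at 188, 196 and 206 CPM in DKO. All DKO values were below all SKO values, and Os9 fell by 0.46 ± 0.09 (edgeR adjusted p = 0.00647). Erlec1, the other lectin, had 38.0, 38.5 and 41.4 CPM in SKO and 38.7, 39.8 and 36.6 CPM in DKO. Its groups overlapped, and its log2 fold change was -0.03 ± 0.07 (edgeR adjusted p = 0.782). Dnajc10 encodes ERdj5, a reductase that opens disulfide bonds of ERAD clients. It went from 35.6, 39.5 and 40.1 CPM in SKO to 32.9, 29.4 and 30.9 CPM in DKO and fell by 0.31 ± 0.08 (edgeR adjusted p = 0.0268). That call was lost in 6 of 12 alternatives, among them leaving out SKO replicates 2 or 3 or DKO replicates 2 or 3 (adjusted p up to 0.0929).

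Of the 7 genes of the HRD1 complex and the Derlins, 1 was called lower. Sel1l, the adaptor that stabilises HRD1, was counted at 188, 200 and 215 CPM in SKO and at 184, 176 and 166 CPM in DKO. Syvn1, encoding the ligase itself, was counted at 87.1, 85 and 96.5 CPM in SKO and at 78.7, 78.0 and 70.4 CPM in DKO. In both genes the DKO libraries lay below the SKO libraries, but neither passed the threshold, with log2 fold changes of -0.20 ± 0.08 for Sel1l (edgeR adjusted p = 0.118) and -0.24 ± 0.08 for Syvn1 (edgeR adjusted p = 0.0542). Syvn1 passed with RLE size factors and without the filter on low counts (edgeR adjusted p = 0.0477 in the latter).

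Derlins are membrane proteins thought to help form the passage out of the ER, and the 3 Derlin genes had different values. Derl2 had 111, 116 and 106 CPM in SKO and 83.2, 92.2 and 86.8 CPM in DKO. It fell by 0.35 ± 0.07 (edgeR adjusted p = 0.0098, and 0.0509 without SKO replicate 2), with no overlap. Derl1 had 123, 143 and 132 CPM in SKO and 137, 130 and 131 CPM in DKO, a difference of 0.00 ± 0.08 (edgeR adjusted p = 0.998). Derl3 (ENSMUSG00000009092, mm10 chr10:75893413-75895941), a Derlin known from strongly secreting cells, was much the rarest member. It was counted at 1.78, 1.48 and 4.73 CPM in SKO and at 4.88, 5.72 and 11.9 CPM in DKO. Although every DKO library was above every SKO library, SKO replicate 3 and DKO replicate 1 were close. The log2 fold change was 1.47 ± 0.55 and missed the threshold (edgeR adjusted p = 0.12). Leaving out SKO replicate 3 made it 2.19 and passed (edgeR adjusted p = 0.0302).

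The spread of Derl3 between libraries of a group was large, with a dispersion 8.16 times the trend for genes of its level. Among plasma cell markers, cells in which this gene is abundant, Jchain rose from 1.71 to 2.94 CPM (edgeR adjusted p = 0.0387), a call lost with DESeq2 and on leaving out any library other than DKO replicate 2 (edgeR adjusted p up to 0.143). Sdc1, which hepatocytes also express, rose from 176 to 269 CPM (edgeR adjusted p = 0.00154). Mzb1 reached no more than 0.733 CPM, and Tnfrsf17 had 0 counts in 5 of 6 libraries. The 8 B and plasma cell markers, 2 of 6 tested called higher, summed to 180 to 185 CPM in SKO and 249 to 303 CPM in DKO, nearly all of it Sdc1. The 7 markers without Sdc1 summed to 6.15 to 7.57 CPM in SKO and 6.7 to 11.2 CPM in DKO, which overlap. Their part in the Derl3 values was not tested.

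Herpud1 encodes Herp, a membrane scaffold of the HRD1 complex. Its counts were 511, 514 and 548 CPM in SKO and 310, 567 and 485 CPM in DKO. DKO replicate 1 was far below the other 5 libraries, which lay within 485 to 567 CPM. The log2 fold change was -0.21 ± 0.20 (edgeR adjusted p = 0.501), and 0.01 without that library, with a dispersion 2.36 times the trend. Herpud2, its paralogue, had 35.6 to 41.6 CPM in SKO and 36.5 to 37.8 CPM in DKO, without a call (log2 -0.08 ± 0.08, edgeR adjusted p = 0.551).

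**Figure D2:**
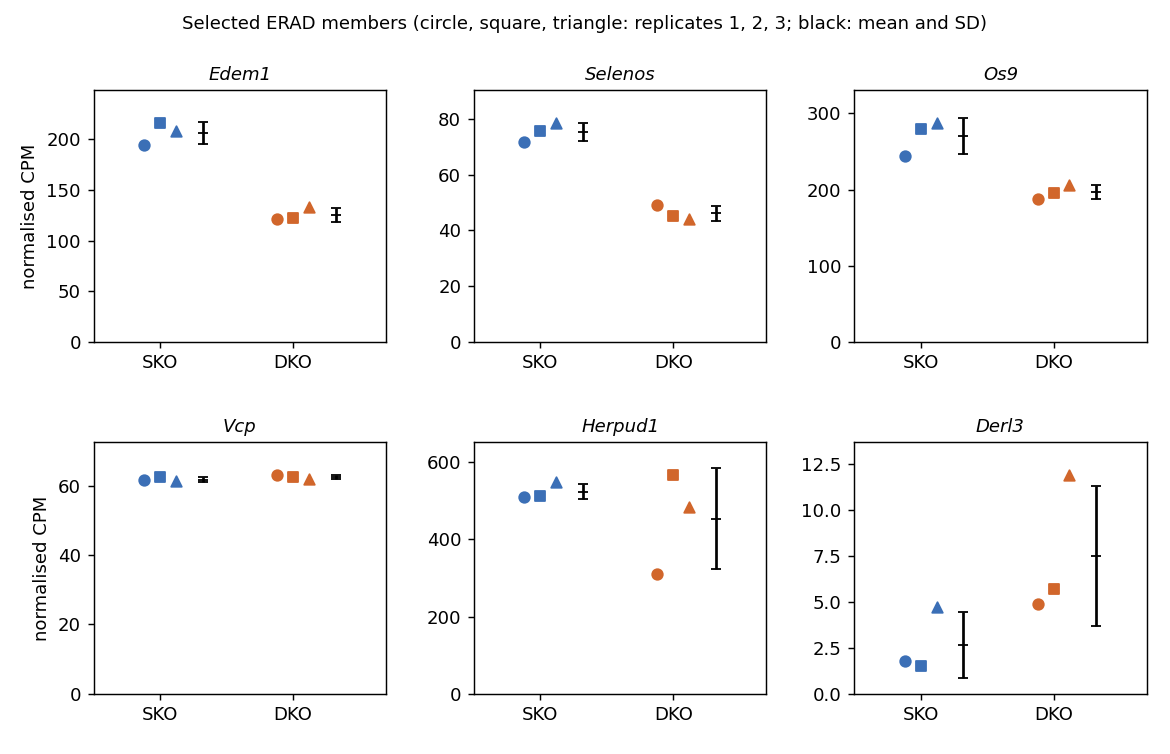
Normalised CPM (y axis, starting at 0) in each library of SKO (blue) and DKO (orange) for 6 ERAD genes. Circle, square and triangle are replicates 1, 2 and 3, and the black bar is the mean with its SD. Edem1, Selenos and Os9 show groups that do not overlap, Vcp is nearly level, Herpud1 is set apart by DKO replicate 1 at 310 CPM, and Derl3 runs from 1.48 to 11.9 CPM. TMM scaling was used, and with total counts Vcp was called higher.

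Among the 5 other ubiquitin ligases of the ER membrane, March6 and Bfar were called lower. March6, known for degrading the cholesterol-synthesis enzyme squalene monooxygenase, had 225, 247 and 251 CPM in SKO and 186, 191 and 206 CPM in DKO. It fell by 0.31 ± 0.08 (edgeR adjusted p = 0.0259), a call lost in 5 of 12 alternatives, among them leaving out SKO replicates 2 or 3 or DKO replicates 1 or 2 (adjusted p up to 0.0989). Bfar, which also restrains apoptosis, had 102, 104 and 104 CPM in SKO and 74.7, 83.3 and 87.2 CPM in DKO. It fell by 0.34 ± 0.08 (edgeR adjusted p = 0.0118). Rnf5 and Rnf185 are close relatives, and both had all DKO libraries below all SKO libraries without passing the threshold. Rnf5 had 29.2 to 30.7 CPM in SKO and 23.3 to 27.2 CPM in DKO (log2 -0.25 ± 0.08, edgeR adjusted p = 0.0617, and 0.0427 without DKO replicate 2). Rnf185 had 44.3 to 47.8 CPM in SKO and 39.6 to 42.3 CPM in DKO (log2 -0.15 ± 0.07, edgeR adjusted p = 0.166). Rnf139, which takes part in the turnover of HMG-CoA reductase, had 48.3 to 53.0 CPM in SKO and 39.9 to 50.0 CPM in DKO and overlapped (log2 -0.22 ± 0.09, edgeR adjusted p = 0.123). Reads of Rnf5, Rnf139 and Aup1 are less certain than others, since 24.7%, 26.2% and 23.0% of their exon bases are shared with another gene and the strand setting of the counting is not given.

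The ubiquitin-conjugating enzymes that serve these ligases, with the recruiting protein Aup1, make up 5 members, of which 1 was called. Ube2g1 had 73.3, 84.7 and 74.9 CPM in SKO and 62.8, 67.2 and 65.8 CPM in DKO. Ube2g2, the partner of several ER ligases, was the other way round, at 39.5, 38.1 and 35.2 CPM in SKO and 44.1, 46.4 and 41.2 CPM in DKO. Neither gene's groups overlapped. Ube2g1 fell by 0.25 ± 0.08 (edgeR adjusted p = 0.0423), but this call held in 3 of 12 alternatives and was lost without any library other than SKO replicate 1 (adjusted p up to 0.165). The log2 fold change of Ube2g2 was 0.23 ± 0.08 (edgeR adjusted p = 0.0687), and it was called higher with upper-quartile factors (edgeR adjusted p = 0.0314) and with total counts.

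Ube2j1, the enzyme that works with HRD1, had 46.9 to 54.6 CPM in SKO and 46.5 to 48.9 CPM in DKO (log2 -0.11 ± 0.08, edgeR adjusted p = 0.337). Ube2j2 had 20.3 to 20.9 CPM in SKO and 17 to 19.3 CPM in DKO (log2 -0.19 ± 0.09, edgeR adjusted p = 0.147). Aup1, which recruits Ube2g2 to the ER and to lipid droplets, had 146 to 156 CPM in SKO and 142 to 152 CPM in DKO (log2 -0.02 ± 0.07, edgeR adjusted p = 0.9). None of these 3 was called, and only in Ube2j2 did the groups not overlap.

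Of p97 and its 6 cofactors, 3 were called lower, all of them membrane proteins that bind or recruit p97. Vcp was counted at 61.6, 62.5 and 61.4 CPM in SKO and at 63.1, 62.6 and 61.9 CPM in DKO. These 6 values lie within a narrow band, and the log2 fold change was 0.02 ± 0.06 (edgeR adjusted p = 0.885). Selenos (ENSMUSG00000075701, mm10 chr7:66079649-66089405) encodes a selenoprotein that anchors p97 to the Derlins. It was counted at 71.7, 75.6 and 78.4 CPM in SKO and at 49.1, 45.0 and 44.1 CPM in DKO. All DKO libraries were far below all SKO libraries, and Selenos fell by 0.71 ± 0.07 (edgeR adjusted p = 0.000225). Selenok, a smaller selenoprotein of the same complex, had 44.8, 42.8 and 41.4 CPM in SKO and 32, 34 and 35.3 CPM in DKO. It fell by 0.35 ± 0.07 (edgeR adjusted p = 0.00993). Ubxn4, a membrane protein that binds p97 through its UBX domain, had 125, 129 and 118 CPM in SKO and 98, 82.7 and 88.7 CPM in DKO. It fell by 0.46 ± 0.08 (edgeR adjusted p = 0.00449). The groups did not overlap in any of these 3 membrane cofactors.

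The remaining cofactors of p97 did not pass the threshold. Faf2, another UBX-domain membrane protein, had 73.9 to 74.1 CPM in SKO and 63.4 to 67.9 CPM in DKO, with no overlap (log2 -0.17 ± 0.06, edgeR adjusted p = 0.0912). Nploc4 and Ufd1 encode the pair that hands ubiquitinated clients to p97. Nploc4 had 116 to 134 CPM in SKO and 107 to 111 CPM in DKO, again with no overlap (log2 -0.20 ± 0.08, edgeR adjusted p = 0.0849), and was called lower without SKO replicate 1 (edgeR adjusted p = 0.0426). Ufd1 had 40.4 to 46.5 CPM in SKO and 39.1 to 43.0 CPM in DKO, which overlap (log2 -0.10 ± 0.08, edgeR adjusted p = 0.401).

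Ngly1 strips the glycan from clients that have reached the cytosol. It had 64.0, 62.9 and 59.6 CPM in SKO and 48.3, 52.5 and 56.6 CPM in DKO. DKO replicate 3 was the closest to the controls, and Ngly1 fell by 0.25 ± 0.08 (edgeR adjusted p = 0.0473), a call that held in 3 of 12 alternatives and was lost without any library other than DKO replicate 3 (adjusted p up to 0.143). Erlin1 and Erlin2 form the ring-shaped complex that delivers activated IP3 receptors to ERAD, and Tmub1 encodes a membrane protein with a ubiquitin-like domain. None of these 3 genes was called, and the groups overlapped in each. Log2 fold changes were -0.22 ± 0.10 for Erlin1 (edgeR adjusted p = 0.14), 0.07 ± 0.08 for Erlin2 (edgeR adjusted p = 0.586) and 0.06 ± 0.12 for Tmub1 (edgeR adjusted p = 0.765).

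**Figure D3:**
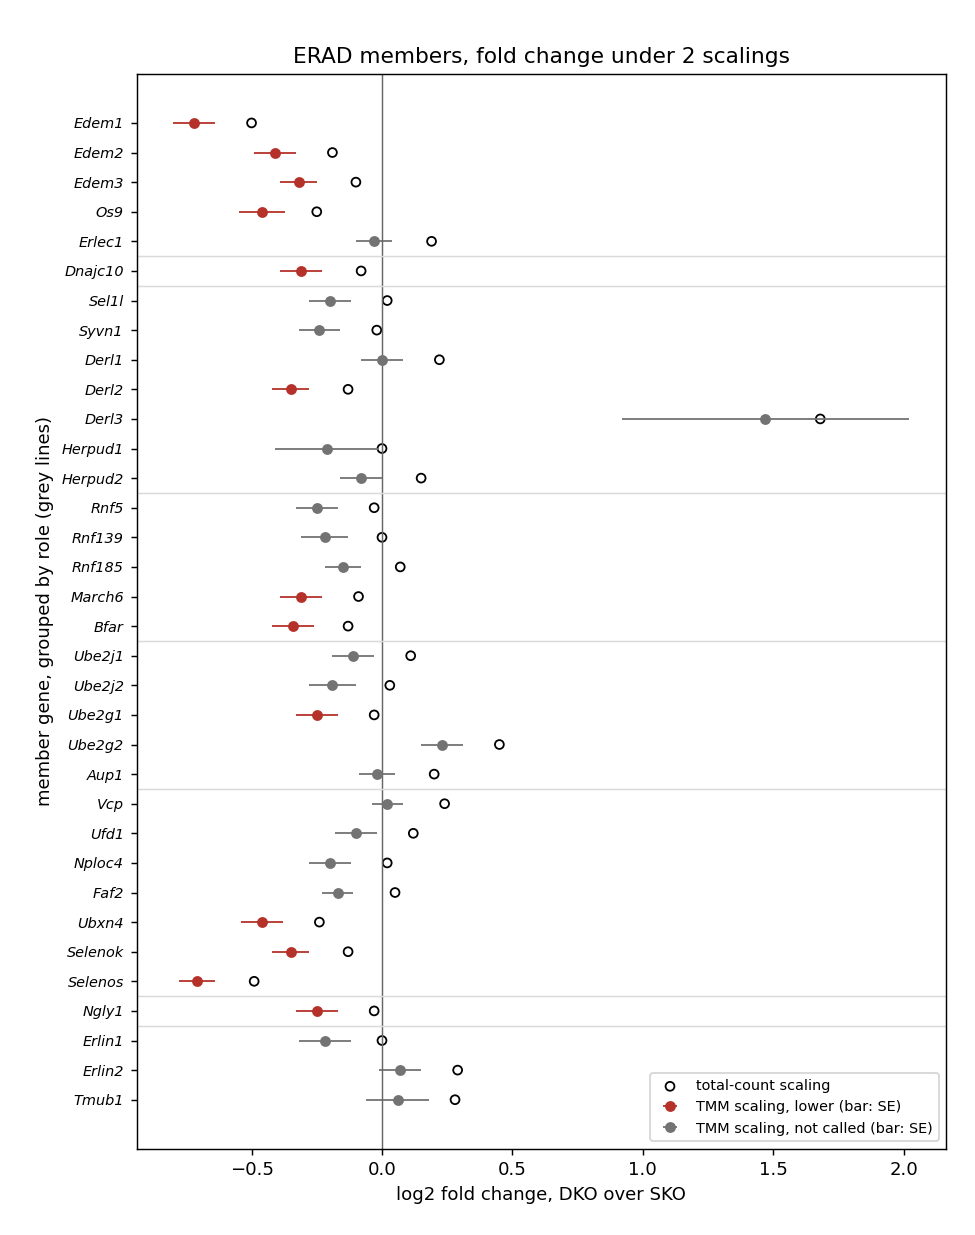
Log2 fold change of DKO over SKO (x axis) for each ERAD gene, grouped by role (y axis). Filled points are values with TMM scaling and bars are their SE, red where called lower and grey where not called, and open circles are values with total counts alone. The 13 red points lie between -0.72 and -0.25. All open circles are shifted to the right, and only Edem1 and Selenos were still called lower there.

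Ratios between genes within a library do not depend on library scaling, so 15 pairs of related members were compared, chosen after the values were seen. Each ratio was taken between normalised CPM per kilobase of exon, so it differs from the ratio of the CPM given above. With 3 libraries against 3 an exact permutation test, two-sided, cannot go below p = 0.1, so these ratios are descriptions. The smallest p of that test adjusted over the 15 pairs was 0.167. The ratio of Selenos to Vcp was 3.82, 3.97 and 4.19 in SKO and 2.56, 2.36 and 2.34 in DKO. For Ubxn4 over Vcp it was 2.11, 2.15 and 2.0 in SKO and 1.62, 1.38 and 1.49 in DKO. Neither of these ratios to p97 overlapped between the groups.

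Edem1 and Edem2 stood at a ratio of 1.84, 1.75 and 1.69 in SKO and 1.29, 1.45 and 1.52 in DKO. For Os9 over Erlec1 the ratio was 7.97, 9.03 and 8.60 in SKO and 6.01, 6.09 and 6.97 in DKO. For Ube2g1 over Ube2g2 it was 0.985, 1.18 and 1.13 in SKO and 0.755, 0.768 and 0.848 in DKO. No overlap between the groups was seen in any of these 3 ratios either. The ratio of Derl1 to Derl2 was higher in DKO without overlap, at 3.42 to 3.98 against 2.66 to 3.02. Sel1l and Syvn1, in contrast, stood at 1.22 to 1.34 in SKO and at 1.28 to 1.34 in DKO, which overlap. The groups also overlapped for Edem2 to Edem3, Derl3 to Derl1, Ube2j1 to Ube2j2, Erlin1 to Erlin2 and Herpud1 to Herpud2. They did not overlap for the remaining pairs, Edem1 to Edem3, Derl3 to Derl2 and Selenok to Selenos. How often the ratios of other gene pairs do not overlap was not counted.

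Levels of different genes were compared per kilobase of exon, as normalised CPM per kilobase in SKO (mean ± SD, n = 3). Herpud1 was first at 225 ± 8.66, followed by Os9 at 103 ± 8.66 and Selenos at 50.9 ± 2.26. These 3 levels were separated by more than their spread. Aup1 at 45.7 ± 1.57, Derl1 at 39.8 ± 3.11 and Edem1 at 32 ± 1.58 came next. From there the order is close, and Ubxn4 at 26.6 ± 1.21, Nploc4 at 26.4 ± 1.92 and March6 at 26.2 ± 1.49 do not differ beyond their spread. At the low end stood Ube2j2 at 4.68 ± 0.0724 and Derl3 at 1.34 ± 0.902. In DKO the level of Selenos was 31.2 ± 1.78, below Aup1 at 45.2 ± 1.71. Selenos and Edem1, the members with the lowest DKO-to-SKO ratios, thus ranked 3 and 6 of 34 by level per length in SKO.

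**Figure D4:**
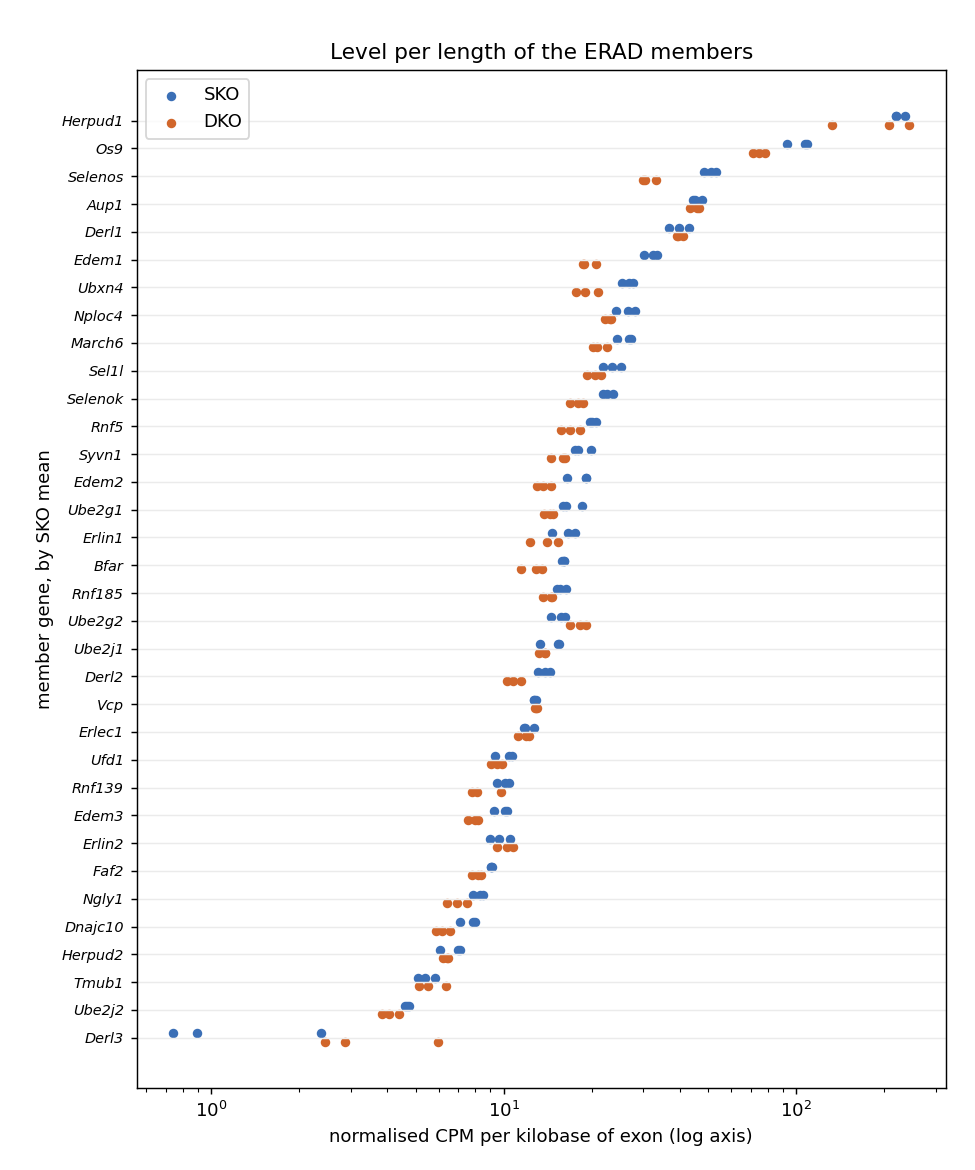
Normalised CPM per kilobase of exon (x axis, log scale) of the ERAD genes, ordered by their SKO mean (y axis), with 1 point per library, blue for SKO and orange for DKO. Herpud1 and Os9 lead, most genes lie within a narrow range, and Derl3 is lowest. TMM scaling was used, and the offset between colours, not the order in SKO, depends on it.

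A list of 52 further ERAD genes, written from general knowledge of the pathway, held 48 that were tested, of which 6 were called lower (12.5%) and 1 higher (2.08%), with a median log2 fold change of -0.035. The share called lower is near the 9.70% of all genes, and the share called higher is below their 10.3%. Usp13, Fbxo2, Foxred2 and Ubxn10 had too few reads. Txndc11, an ER protein that works with EDEM2, went from 37.9, 36.0 and 40.9 CPM in SKO to 23.4, 23.0 and 23.0 CPM in DKO and fell by 0.73 ± 0.08 (edgeR adjusted p = 0.000317), close in size to Edem1. Rnf103, an ER membrane ligase, fell by 0.63 ± 0.09 (edgeR adjusted p = 0.0019), and Jkamp, a membrane protein that binds ERAD ligases and the proteasome, by 0.55 ± 0.09 (edgeR adjusted p = 0.00278). Hm13, the signal peptide peptidase, fell by 0.36 ± 0.07 (edgeR adjusted p = 0.00837). Ubl4a, a cytosolic escort of clients, fell by 0.25 ± 0.07 (edgeR adjusted p = 0.0372), a call lost on leaving out any library (adjusted p 0.0555 to 0.121). Rhbdd1, an ER rhomboid protease, rose from 22.6, 25.7 and 26.3 CPM to 42.6, 34.6 and 34.9 CPM, or by 0.59 ± 0.10 (edgeR adjusted p = 0.00455).

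The 32 proteasome genes, which act after extraction, had a median log2 fold change of -0.027. Of them 1 was called lower, Adrm1, a ubiquitin receptor of the proteasome (log2 -0.32 ± 0.10, edgeR adjusted p = 0.0426), and 0 were called higher. The Adrm1 call was lost on leaving out any library (edgeR adjusted p 0.0538 to 0.144). With total counts 11 proteasome genes were called higher (34.4%) and none lower, and 3 of the 48 other ERAD genes were called lower (6.25%) and 13 higher (27.1%). These shares are near those of all genes under that scaling, 27.6% higher and 3.85% lower. The difference between the lists was not tested.

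**Figure D5:**
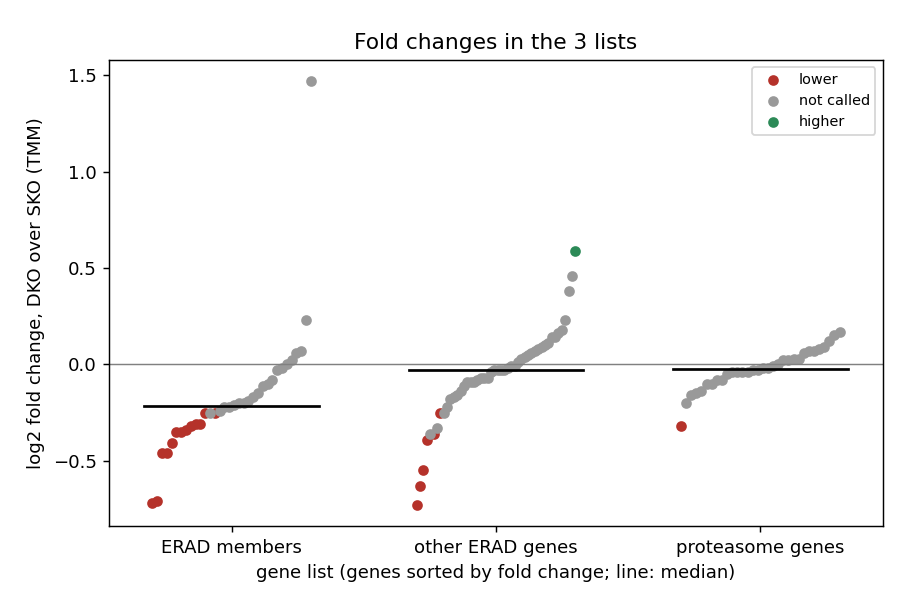
Log2 fold change of DKO over SKO with TMM scaling (y axis) for each tested gene of 3 lists (x axis), sorted within the list, in red where called lower, green where called higher and grey where not called, with the list's median as a black line. The medians are -0.214 for the 34 ERAD members, -0.035 for the 48 other ERAD genes and -0.027 for the 32 proteasome genes. With total counts they are 0.001, 0.185 and 0.194, while that of all genes is 0.226.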

How the data were processed

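For each library the authors deposited whole-number read counts per Ensembl gene. Named in the submitters' processing notes are HTSeq 0.6.1p1, STAR, cutadapt 1.13, DESeq2 and mm10, without roles, settings, annotation or strand. The genotype label set each library's group, and replicate numbers follow accession order and pair nothing. Symbols and positions came from GENCODE M21, which holds 54165 of the 54232 identifiers, and 1 gene of the further lists, Hm13, was matched through a synonym. After filterByExpr, the counts went into edgeR 4.0.16 (R 4.3.3) and its robust quasi-likelihood test with TMM factors and Benjamini-Hochberg adjustment over 13986 genes. Calls were made below an adjusted p of 0.05. DESeq2 1.42.0, limma-voom (limma 3.58.1), 3 other scalings, no filter and leaving out each library were the 12 alternatives. CPM (counts-per-million) use the library total times its TMM factor. Intervals and floors based on counts cover counting error only.

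The members and all lists were chosen with earlier results of these data known. Every member is named, with Xbp1 and Nr1h4, the 8 most significant called genes of the further list and any called higher, and up to 3 called genes each of the proteasome and marker lists. Mzb1, Tnfrsf17, Ly6g, Mpo, Cps1, Asgr1 and Hnf4a were named after their values were seen. A planned comparison of protein sequences was not run. Of the genes this rule names, 1 is not reported here. The test was checked on simulated counts. With few changed genes its false calls ran above the nominal share, almost all in genes of the highest dispersion, and with as many changed genes as here they did not. The limit in that check was narrowed to this second case after the first had exceeded it. The called members have dispersions 0.623 to 0.797 times the trend, while Derl3, Herpud1 and, slightly, Erlin1 (1.06 times) lie above it. Copies elsewhere were searched at 95% identity over at least 100 bases. Vcp-rs had 158 counts over all libraries and the 6 copies of Selenok at most 5 each. Some transcripts of Ube2j2, Ufd1 and Derl2 match other genes, expressed ones among them, over up to 75.8%, 43.6% and 15.8% of their length, so counts of these members may be less certain.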

Additional observations from a re-analysis of the deposited data

How the results depend on the processing

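No paired analysis was possible because the labels give no replicate numbers that the groups share. Of the member values under the 12 alternatives, 335 kept their direction and call, 38 lost the call, 10 gained one and 25 changed sign. Edem1 and Selenos were called in all 12, and Edem2, Os9, Bfar, Ubxn4 and Selenok in all but total counts. With total counts alone 4397 genes were called against 2803, with 2 members lower and 4 higher at a median of 0.001, 3 other ERAD genes lower and 13 higher at 0.185, and 0 proteasome genes lower and 11 higher at 0.194. The log2 fold changes that changed sign there were Erlec1 0.19, Sel1l 0.02, Herpud1 0.00084, Herpud2 0.15, Rnf185 0.07, Ube2j1 0.11, Ube2j2 0.03, Aup1 0.2, Ufd1 0.12, Nploc4 0.02, Faf2 0.05 and Erlin1 0.0013. With upper-quartile factors 1 member was higher at a median of -0.154, 2 other ERAD genes were higher at 0.027, 0 proteasome genes were lower at 0.035, and Erlec1 (0.03) and Aup1 (0.05) changed sign. The scaling moved the median of all genes to 0.226 and 0.068 in these settings. Calls of lower against higher genes split 538 to 3859 with total counts and 987 to 1856 with upper-quartile factors, against 1357 to 1446. With DESeq2 and with no filter 0 proteasome genes were lower. The sign of Derl1, at zero in the report, was negative with RLE factors (-0.0049), DESeq2 (-0.01) and no filter (-0.002).

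Leaving out each library in turn gave 1419 to 2739 genes called, the fewest without SKO replicate 2, 1784 without SKO replicate 3 and 1831 without DKO replicate 3. Members called lower numbered 8 to 13 and higher 0 to 1, with a median of -0.226 to -0.2. Of all genes, 5.2% to 8.34% were called lower in these fits. Other ERAD genes called lower numbered 5 to 6 and higher 1 to 2, with a median of -0.059 to -0.029. Proteasome genes called lower numbered 0 in every such fit, with a median of -0.056 to 0.034. Ranges over these fits that cross zero were -0.05 to 0.05 for Derl1 (negative without SKO replicate 1, SKO replicate 3, -0.01, and DKO replicate 1, -0.02), -0.04 to 0.02 for Aup1 (0.01 without SKO replicate 2 and 0.02 without DKO replicate 1), -0.06 to 0.0028 for Erlec1 (above zero without SKO replicate 3), -0.4 to 0.01 for Herpud1 (above zero without DKO replicate 1) and -0.03 to 0.13 for Tmub1 (below zero without DKO replicate 2). The cause of these changes was not tested. Depth limits Derl3 most, with as few as 27 counts in a library, while every other member had at least 170.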
